A study of Rattus norvegicus with 17 samples.

Results

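Livers of rats whose bile duct had been ligated and that received ghrelin were compared with livers of sham-operated rats, to describe which part of the ligated state was present under ghrelin infusion. The members were 11 of the 17 arrays of the series, namely the 5 arrays labelled as ligated with ghrelin infusion and the 6 labelled as control. Each array held the liver RNA of 1 rat. Sham rats (Rattus norvegicus) had an abdominal incision and saline. Ligated ghrelin rats underwent bile duct ligation and were given recombinant ghrelin at 10 µg/kg/day. Both were infused by an osmotic pump under the skin, operated on at week 7 and killed at week 9, so that ligation had lasted 2 weeks. The remaining 6 arrays, of ligated rats infused with saline and called ligated saline here, were set beside this comparison. Neither strain, sex nor genotype is stated in the labels. None of these groups had ghrelin without ligation, so ligated ghrelin against sham holds ligation and ghrelin together.

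Ligation of the common bile duct stops bile flow, and bile acids build up in the liver. Duct cells then multiply into a ductular reaction, stellate cells turn into myofibroblasts that lay down scar matrix, leukocytes enter, and hepatocytes lower many of their metabolic genes. Ghrelin is a stomach hormone that releases growth hormone through the growth hormone secretagogue receptor, Ghsr. In rat liver the pulsed growth hormone secretion of males drives a set of male-biased genes, and more continuous secretion drives a female-biased set.

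Values are log2 intensities of 1 probe set per gene, the brightest, and they are not compared between genes. Changes are log2 differences ± SE from limma with 5 and 6 arrays, and a gene was called, and is said to have risen or fallen, at a Benjamini-Hochberg adjusted p under 0.05 over 15965 probe sets. A level of 3.95, the median of all deposited values, served as the filter. Where every array of a group lay below it, the fold is a bound against that level. Such a gene passed the filter only through the other groups, so its call is not taken as support. Within groups, array correlations across probe sets ran from 0.965 to 0.985. The median log2 intensity was 3.98 ± 0.038 (SD, n = 5) in ligated ghrelin and 3.86 ± 0.020 (n = 6) in sham arrays (exact two-sided permutation p = 0.00216, adjusted p = 0.00649 over 3 tests). The 3' minus 5' value of the actin controls, a measure of RNA integrity, was 2.11 ± 0.302 against 2.09 ± 0.167 (exact permutation p = 0.859). For GAPDH it was 0.269 ± 0.206 against 0.103 ± 0.092 (exact permutation p = 0.0736, adjusted p = 0.11), with the highest values of both controls on ghrelin array 3 (2.62 and 0.62). Their part in the results below was not tested. The hepatocyte markers Alb, Ttr, Apoa1, Serpina1, Ahsg and Hnf4a stood at or above the percentile 93.1 of kept probe sets or genes on every array of the 3 groups.

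Most of the listed scar, duct, inflammatory and cell division genes were higher in ligated ghrelin than in sham livers, and most of those of bile acid, drug, fatty acid and amino acid metabolism were lower. Of 9736 measured genes, 5471 (56.2%) were called, 3405 (35.0%) higher and 2066 (21.2%) lower, and the median change was 0.09. The call held a change of at least 1 log2 unit for 1793 genes (18.4%), 1367 of them higher and 426 lower. All 5 ghrelin arrays lay above all 6 sham arrays for 2429 genes (24.9%) and below them for 1367 (14.0%), together 39.0% of genes. The balance depends on the scaling: 62.2% of calls were higher on the deposited scale, 52.4% after quantile normalization, 49.5% with array medians set equal and 40.8% without the filter. These alternatives moved the median change by -0.09, -0.12 and -0.13. In bulk tissue, fewer cells of a type and less RNA per cell cannot be told apart.

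Among genes whose groups did not overlap, the 8 with the largest fitted increases were Tsx, Msln, Lcn2, Gpx2, Cxcl6, Cd24, H19 and Sctr. For Tsx, Gpx2, Cxcl6 and Sctr, whose sham values all lay below the filter level, the change is only a bound, so the order among these genes, and against others such as Loxl1 and Krt19, is not settled. Tsx, named for expression in testis, read 11.97, 11.91, 11.82, 11.72 and 12.21 on ghrelin arrays 1 to 5. Its sham values ran from 1.99 to 2.61 with a median of 2.33. It was therefore below the filter level in every sham liver and bright in every ghrelin liver, at least 251-fold higher (change 9.60 ± 0.13, limma adjusted p = 2.88e-18). Tsx passed the filter only through ligated arrays, where it was high, so its call is not taken as support. Mesothelin, Msln, a surface protein of mesothelial cells, rose by 7.11 ± 0.42. Its sham mean lay below the filter level with some arrays above it, so this size is approximate, as are those of Loxl1, Krt7, Blnk, Abcc3 and Cyp4f5 below. The same holds for the ghrelin mean of Dhrs7l1. Lcn2, an iron-chelator binding protein of neutrophils and injured epithelium, rose by 6.96 ± 0.95. The glutathione peroxidase Gpx2, typical of epithelia, was at least 40.7-fold higher. The imprinted fetal transcript H19 rose by 6.51 ± 0.67.

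In the other direction the 8 with the largest fitted decreases were Stac3, Obp3, Car3, Dhrs7l1, Cyp2c11, Inmt, Slc22a8 and Nox4. The order is likewise not settled for Stac3, Inmt and Nox4, whose ghrelin values all lay below the filter level. Stac3 read 2.72, 2.73, 2.73, 2.72 and 2.73 on ghrelin arrays 1 to 5 and from 11.49 to 12.97 with a median of 12.56 in sham livers. It fell from a high level to below the filter level on every ghrelin array (at least 352-fold lower, change -9.69 ± 0.18, limma adjusted p = 4.06e-16). Stac3 passed the filter only through the sham arrays, where it was high, so its call is not taken as support. The odorant-binding protein Obp3 fell by 8.73 ± 0.58 and carbonic anhydrase 3, Car3, by 8.02 ± 0.65. The dehydrogenase Dhrs7l1 fell by 7.84 ± 0.62. The methyltransferase Inmt was at least 37.2-fold lower. The organic anion transporter Slc22a8 fell by 5.96 ± 0.65 and the NADPH oxidase Nox4 was at least 17.7-fold lower.

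**Figure D1:**
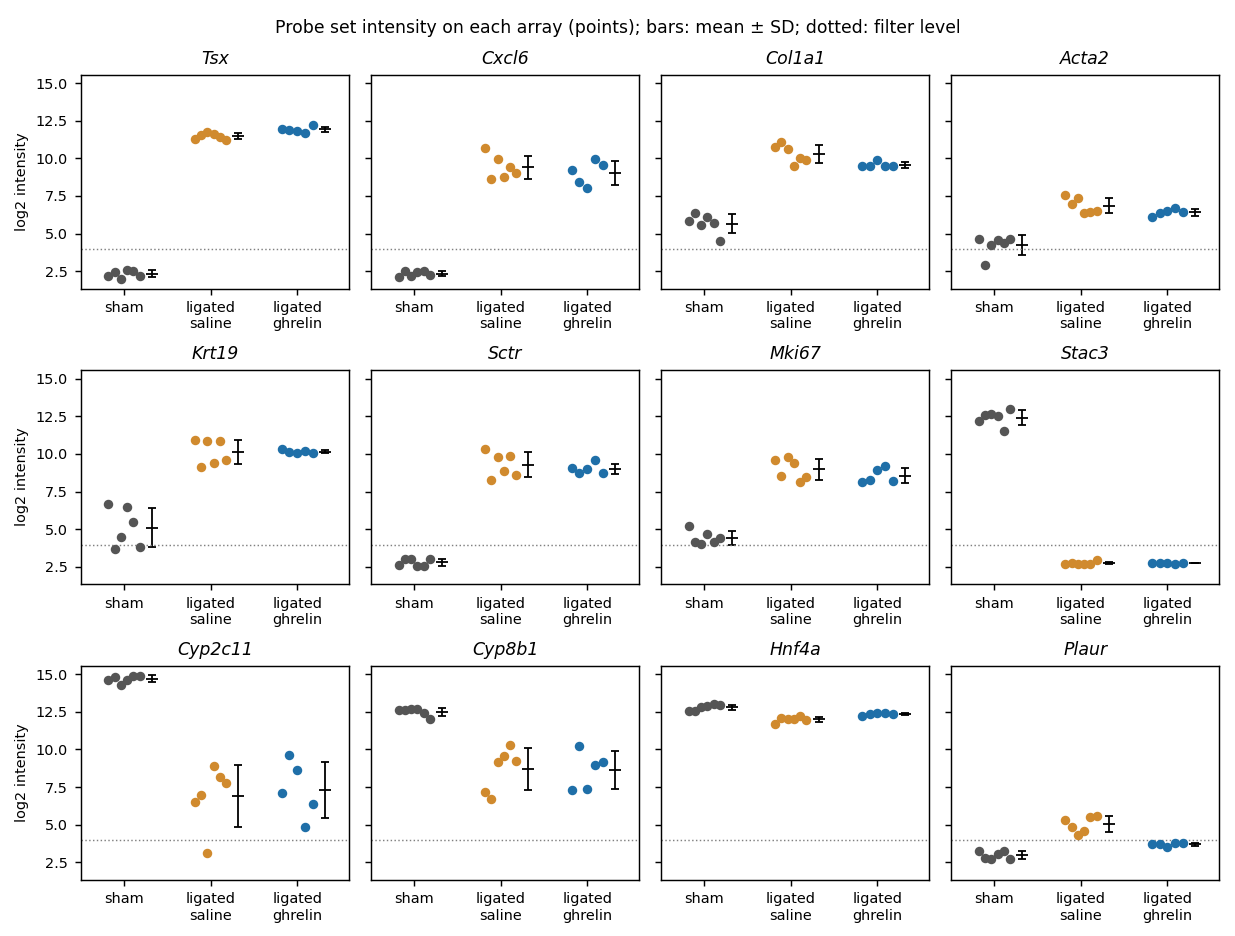
Log2 intensity of 12 genes on each of the 17 arrays, 1 point per rat, by group, with the group mean ± SD at the right of each set of points and the filter level of 3.95 as a dotted line. For Tsx, Cxcl6, Sctr and Stac3 at least 1 group lies wholly below the filter level, and for all 12 genes shown the ghrelin and sham points do not overlap. The ghrelin and sham points of Plaur all lie below the filter level.

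Fibrous scar genes were raised in the ghrelin livers. Of 31 measured genes of the scar matrix, 29 rose and 0 fell, with a median change of 1.91. Col1a1, a chain of the type I collagen that makes up most scar, read 9.47, 9.47, 9.88, 9.47 and 9.51 on ghrelin arrays 1 to 5. In sham livers it ran from 4.49 to 6.37 with a median of 5.75. Every ghrelin array lay above every sham array, and ghrelin array 3 stood apart above the other ghrelin arrays. The change was 3.89 ± 0.30, or 14.9-fold (limma adjusted p = 4.05e-08). Type III collagen, Col3a1, read 13.36, 12.96, 13.39, 13.35 and 13.11 against sham values from 11.23 to 11.60 with a median of 11.42, a rise of 1.82 ± 0.14. The elastin cross-linker Loxl1 rose by 6.17 ± 0.31, and the laminin chain Lamb1 of basement membranes by 3.41 ± 0.27. The members that were not called were periostin, Postn (1.29 ± 0.83), and fibronectin, Fn1 (-0.07 ± 0.076), which also comes from hepatocytes. Postn was called higher with the 2 groups alone (limma adjusted p = 0.00864), and Fn1 was called lower with array medians set equal.

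Of 16 markers of stellate cells and myofibroblasts, 13 rose and 1 fell (median 1.97). Smooth muscle actin, Acta2, the usual mark of myofibroblasts, read 6.07, 6.35, 6.48, 6.68 and 6.45 on the ghrelin arrays. Its sham values ran from 2.92 to 4.64 with a median of 4.47. The groups were separate, and the change was 2.18 ± 0.29 (limma adjusted p = 1.06e-05). The cytoskeletal proteins vimentin (Vim) and transgelin (Tagln) rose by 3.17 ± 0.21 and 3.48 ± 0.45, the PDGF receptor Pdgfrb by 2.80 ± 0.34 and the pericyte gene Rgs5 by 2.39 ± 0.16. Lrat, which esterifies retinol for storage in resting stellate cells, fell by 1.02 ± 0.19. Not called were Reln (0.30 ± 0.14) and Lhx2 (-0.23 ± 0.19), though Lhx2 was called lower after quantile normalization (limma adjusted p = 0.0382). The summed intensity of the list ran from 3488 to 4430 in sham and 13791 to 18312 in ligated ghrelin livers.

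Matrix turnover and its signals rose with the scar genes. Of 13 matrix proteases and inhibitors, 12 rose and 0 fell (median 1.54). The macrophage elastase Mmp12 was at least 22.5-fold higher, and the gelatinase Mmp2 rose by 2.98 ± 0.25. The inhibitor Timp1 read 9.11, 9.69, 9.77, 9.22 and 8.89 against sham values from 6.17 to 7.37 with a median of 6.45, a rise of 2.77 ± 0.31. Adamts1 was at -0.26 ± 0.14 and was called lower with array medians set equal (limma adjusted p = 0.0264). In the TGF-beta pathway 15 of 21 members rose and 0 fell (median 0.92). Among the ligands, Tgfb3 was at least 5.86-fold higher and Tgfb2 and Tgfb1 rose by 3.11 ± 0.34 and 1.42 ± 0.19. The matricellular target Ccn2 rose by 3.35 ± 0.44, and the decoy receptor Bambi by 1.49 ± 0.14. As the mean of its 2 probe sets Tgfb2 rose by 1.88. The signal inhibitors Smad6 and Smad7 were at -0.02 ± 0.085 and 0.06 ± 0.16, and Smad6 was called lower after quantile normalization (limma adjusted p = 0.00368).

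Bile duct epithelium markers had the largest fitted median change of the lists with at least 5 measured members, 3.87, beside 3.86 for the neutrophil list. Some duct changes are only bounds, so the order of these 2 lists is not settled. Of 20 duct markers, 17 rose and 0 fell, and every one that rose had groups without overlap. The duct keratin Krt19 read 10.34, 10.14, 10.05, 10.21 and 10.04 on the ghrelin arrays and from 3.69 to 6.66 with a median of 4.995 in sham livers, a rise of 5.06 ± 0.52 (limma adjusted p = 7.32e-07). The secretin receptor Sctr, which drives bicarbonate secretion by duct cells, read 9.05, 8.74, 8.97, 9.58 and 8.72. Its sham values ran from 2.55 to 3.03 with a median of 2.80, all below the filter level, so it was at least 33.4-fold higher. The chloride channel Cftr was at least 19.7-fold higher, the tight junction protein Cldn4 at least 12.5-fold higher, and Cd24 rose by 6.67 ± 0.34. Osteopontin, Spp1, rose by 4.28 ± 0.46, Krt7 by 3.21 ± 0.36 and Krt8, which hepatocytes also make, by 2.29 ± 0.11. Not called were the bile acid transporter Slc10a2 (1.82 ± 0.81), the anion exchanger Slc4a2 (0.29 ± 0.16) and the transcription factor Onecut1 (-0.62 ± 0.30). Slc10a2 was called without any one of 3 arrays (lowest limma adjusted p 0.004). The summed intensity of the list ran from 7829 to 10963 in sham and 32956 to 38478 in ligated ghrelin livers.

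Cell contacts followed this epithelial pattern in part. Of 20 junction genes 12 rose and 3 fell (median 1.07). The gap junction protein Gja1 rose by 2.68 ± 0.20, while Gjb1, the main gap junction protein of hepatocytes, fell by 1.16 ± 0.15. The S100 and annexin calcium-binding proteins rose in 17 of 17 cases (median 2.16), with S100a11 at 4.47 ± 0.24 and Anxa5 at 3.97 ± 0.21.

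**Figure D2:**
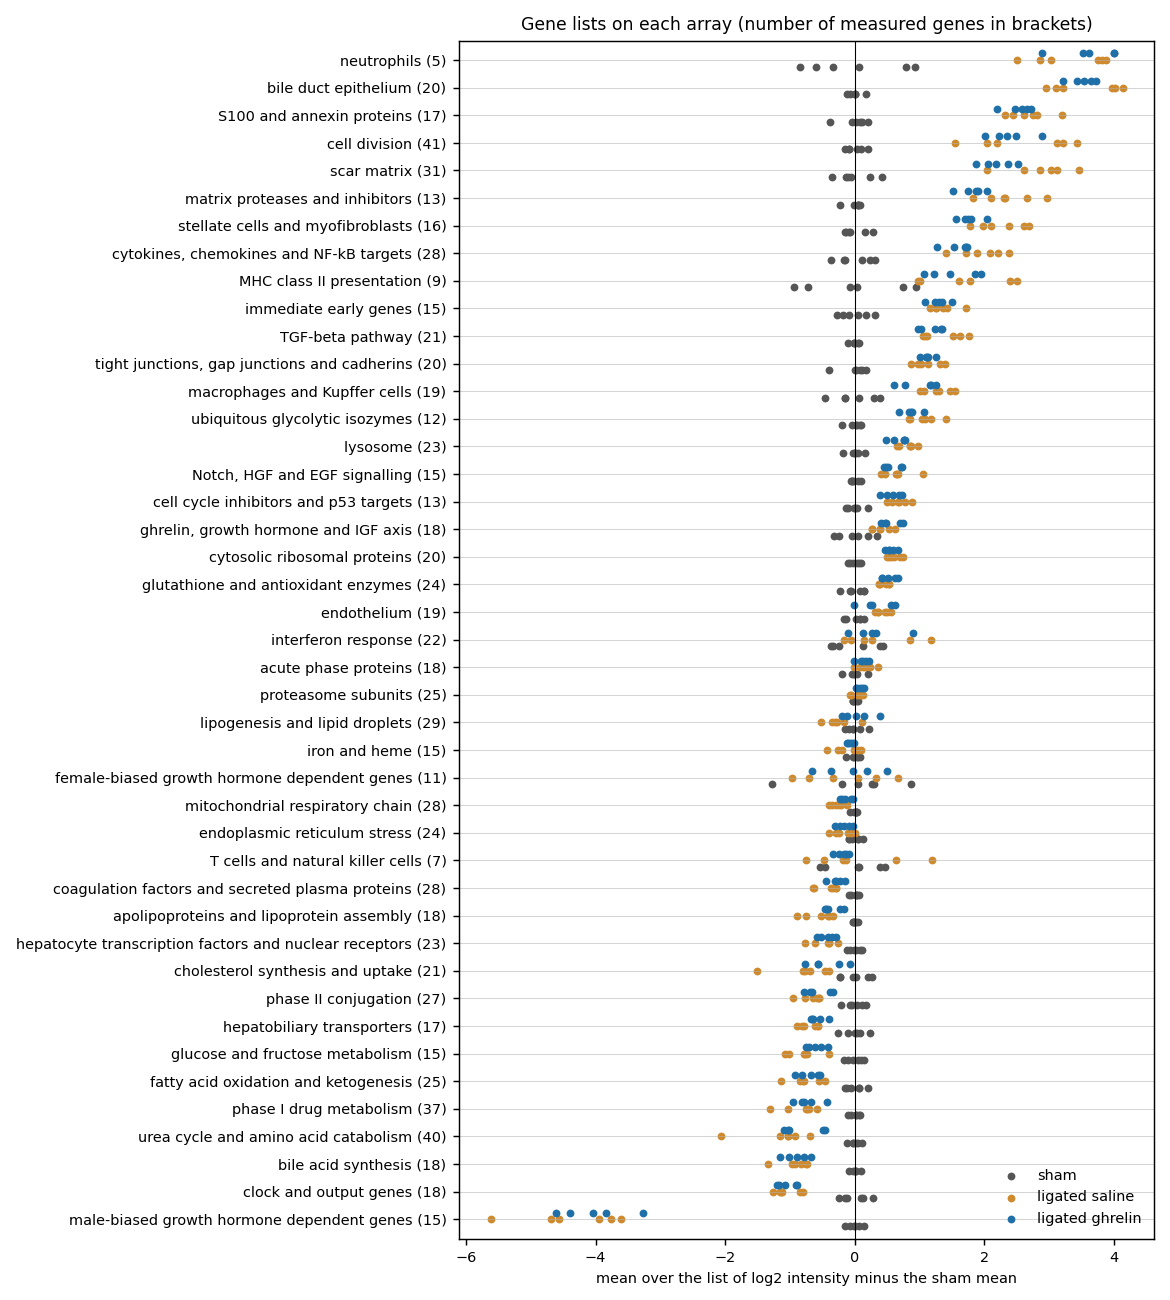
Mean over each gene list of log2 intensity minus the sham mean (x axis), 1 point per array, for lists with at least 5 measured members, whose number stands in brackets. On ghrelin arrays the bile duct list runs from 3.22 to 3.73, the scar matrix list from 1.88 to 2.51 and the male-biased growth hormone list from -4.61 to -3.27.

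Inflammatory signals rose, with a few chemokines lower. Of 28 cytokine, chemokine and NF-kB target genes 18 rose and 2 fell (median 1.45). The neutrophil chemokine Cxcl6 read 9.24, 8.40, 8.04, 9.94 and 9.58 on the ghrelin arrays against sham values from 2.14 to 2.55 with a median of 2.34, and was at least 34-fold higher. Ccl2, which draws monocytes, read 7.26, 6.76, 7.28, 7.77 and 7.52 against sham values from 3.39 to 4.55 with a median of 4.21, a rise of 3.27 ± 0.31. Neither gene had groups that overlapped. Ccl20, a chemokine of injured epithelium, was at least 13.1-fold higher, and the TWEAK receptor Tnfrsf12a, found on duct progenitors, rose by 4.67 ± 0.34. The members that fell were the interferon-induced chemokine Cxcl11 (-1.33 ± 0.20) and Cxcl12 (-0.97 ± 0.16), a chemokine made by stromal and endothelial cells, which fell by 1.84 as the mean of its 3 probe sets.

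Markers of leukocytes differed by cell type. Of 5 neutrophil genes 4 rose and 0 fell, S100a8 by 4.15 ± 0.30 and S100a9 by 3.86 ± 0.35, and Ncf1 was at 0.10 ± 0.14. Camp, Np4 and Cxcr2 of that list did not pass the filter. Of 19 macrophage and Kupffer cell genes 15 rose (median 1.06), the signalling adaptor Tyrobp by 1.43 ± 0.20 and galectin 3, Lgals3, by 2.35 ± 0.15. Cd14, a receptor for bacterial lipopolysaccharide, was the only member to fall, by 0.71 ± 0.19. Of 9 class II antigen presentation genes 7 rose (median 1.43), with RT1-DMa, a peptide loader, at 2.17 ± 0.30 and RT1-DMb at 1.76 ± 0.21. The pan-leukocyte gene Ptprc rose by 1.10 ± 0.20. Of 7 T and natural killer cell genes 2 (28.6%) rose and 2 (28.6%) fell, beside 35.0% and 21.2% of all genes. Those that fell were granzyme A, Gzma (-1.73 ± 0.59), and perforin, Prf1 (-1.21 ± 0.47), the cytotoxic granule proteins. The Gzma call was lost without ghrelin array 4 (limma adjusted p = 0.0526), and the Prf1 call without any one of 8 arrays (highest adjusted p 0.0899). Without saline array 6, 4 members fell. A further 12 members on the array, Cd3d and Cd8a among them, did not pass the filter. Of 3 measured B and plasma cell genes the adaptor Blnk rose by 2.65 ± 0.22, and the other 2 were not called (median of the list 0.19). Cd79b, Ms4a1 and Mzb1 did not pass the filter. Summed intensities ran from 19906 to 33711 in sham and 40229 to 63154 in ligated ghrelin livers for the macrophage list, and from 275 to 1784 in sham and 10480 to 29515 in ligated ghrelin livers for the neutrophil list. The neutrophil sum includes Lcn2, which is also of injured epithelium, so it does not measure neutrophils alone.

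Interferon response genes were mixed, with 9 of 22 (40.9%) higher and 3 (13.6%) lower (median 0.21), beside 35.0% and 21.2% of all genes. The immunoproteasome subunit Psmb9 and the peptide transporter Tap2 rose by 1.11 ± 0.16 and 1.69 ± 0.25. The antiviral gene Rsad2 and the interferon signal transducer Stat2 fell by 1.46 ± 0.43 and 0.61 ± 0.13. Endothelial genes were mixed as well, with 9 of 19 (47.4%) higher and 3 (15.8%) lower (median 0.33). Vwf, a marker of larger vessels, rose by 1.34 ± 0.32 and Ramp2 by 1.16 ± 0.16, while Ehd3, found in glomerular and sinusoidal endothelium, fell by 0.92 ± 0.19 and the VEGF receptor Kdr by 0.59 ± 0.13. Acute phase genes, which hepatocytes make under interleukin 6, had 6 of 18 members (33.3%) higher and 2 (11.1%) lower (median 0.07). The share that rose was near that of all genes. Lbp, which binds lipopolysaccharide, rose by 2.07 ± 0.26 and Stat3 by 1.17 ± 0.18. The receptor Il6r fell by 1.60 ± 0.20, and haptoglobin, Hp, was at 0.12 ± 0.051.

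**Figure D3:**
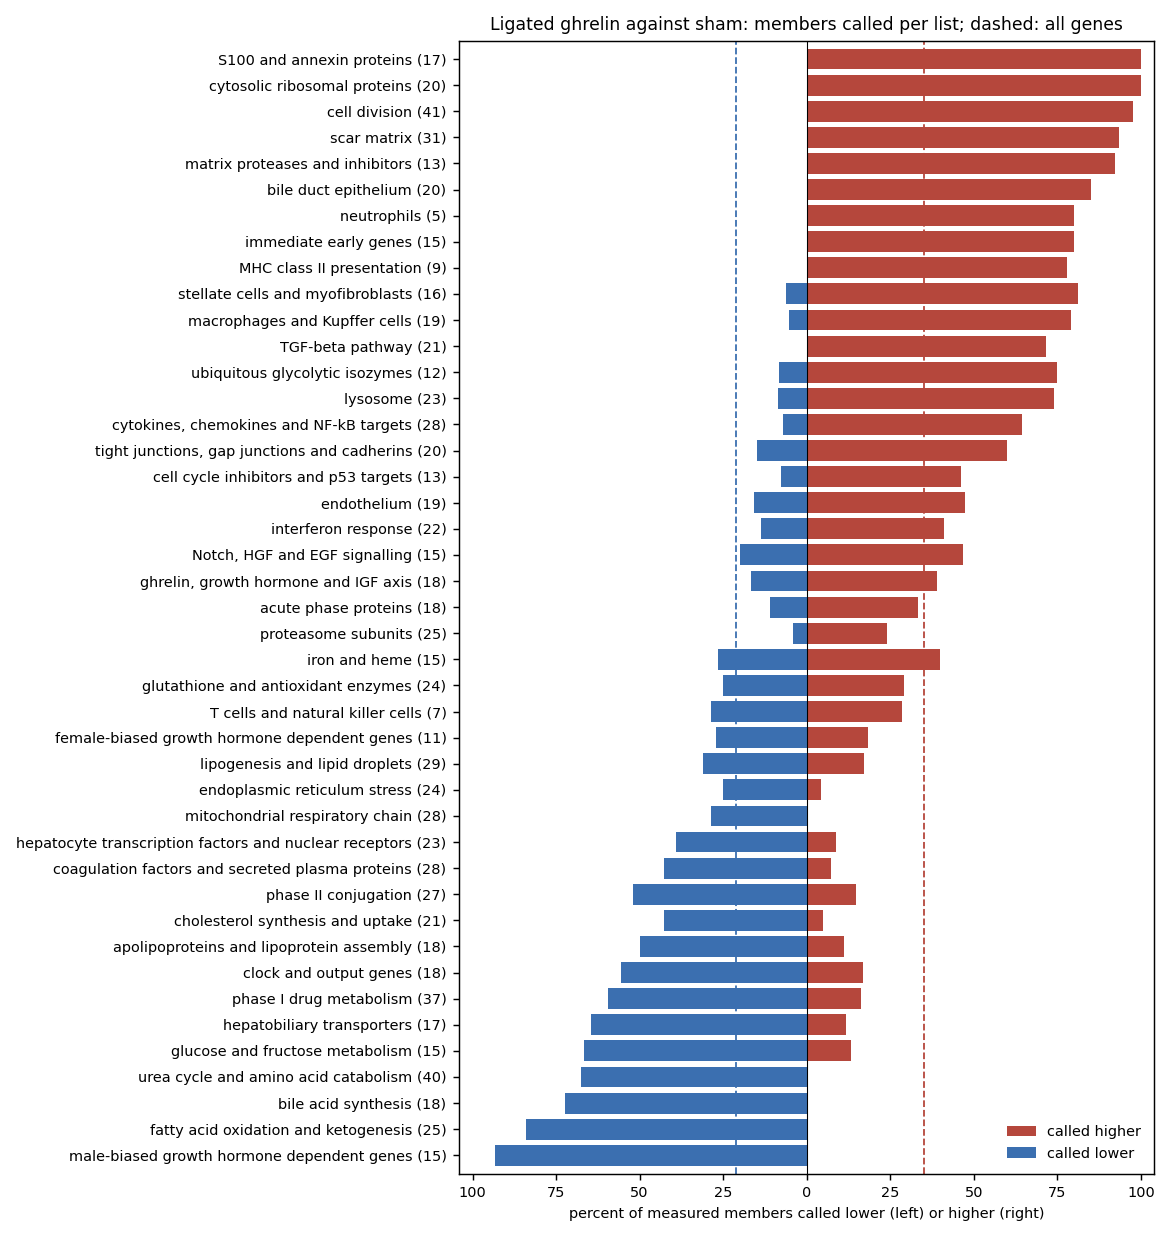
Percent of the measured members of each list called lower (left) or higher (right) in ligated ghrelin against sham livers by limma, for lists with at least 5 measured members, whose number stands in brackets. Dashed lines give the same share over all 9736 genes, 35.0% higher and 21.2% lower.

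Cell division genes rose in 40 of 41 cases and fell in 0 (median 2.40). The proliferation marker Mki67 read 8.13, 8.25, 8.92, 9.21 and 8.23 on the ghrelin arrays and from 4.003 to 5.23 with a median of 4.30 in sham livers, so all ghrelin values were higher (change 4.11 ± 0.32, limma adjusted p = 4.04e-08). The brightest probe set of Racgap1, needed for cell cleavage, was at least 10.7-fold higher, while the mean of its 2 probe sets rose by 2.84. The spindle protein Prc1 was at least 11.4-fold higher. The topoisomerase Top2a and the mitotic kinase Cdk1 rose by 3.72 ± 0.36 and 3.73 ± 0.36. Cyclin E1, Ccne1, was not called (0.15 ± 0.18).

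Promoters of cell division genes are known for CCAAT boxes, which NF-Y binds, and for cell cycle homology regions with the core TTTGAA. Since these members rose together, the 250 bases before the RefSeq gene start (assembly GRCr8) were searched on both strands for both motifs. Of 31 members with a promoter in the table, CCAAT or its reverse ATTGG stood in 20 (64.5%), TTTGAA or its reverse TTCAAA in 8 (25.8%) and both in 7 (22.6%). Over all 27457 promoters of that length the shares were 34.3%, 16.0% and 5.76%, and over 8170 promoters of measured genes 36.2%, 10.2% and 3.93%. A match describes the letters and not binding. The 4 members with both motifs and the lowest p are printed 5′ to 3′ on the gene's strand, with the motifs in capitals, to show how close the motifs lie to each other. They are Mki67 at chr1:199952594-199952843 (minus strand), Prc1 at chr1:143659231-143659480 (plus), Top2a at chr10:84473094-84473343 (minus) and Cdk1 at chr20:19265043-19265292 (plus). In Mki67 a TTTGAA and an ATTGG share 1 base.
Mki67: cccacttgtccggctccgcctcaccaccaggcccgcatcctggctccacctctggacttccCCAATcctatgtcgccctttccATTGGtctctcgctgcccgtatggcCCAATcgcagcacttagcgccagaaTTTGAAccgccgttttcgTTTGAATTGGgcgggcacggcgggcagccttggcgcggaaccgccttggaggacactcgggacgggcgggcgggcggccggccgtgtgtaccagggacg
Prc1: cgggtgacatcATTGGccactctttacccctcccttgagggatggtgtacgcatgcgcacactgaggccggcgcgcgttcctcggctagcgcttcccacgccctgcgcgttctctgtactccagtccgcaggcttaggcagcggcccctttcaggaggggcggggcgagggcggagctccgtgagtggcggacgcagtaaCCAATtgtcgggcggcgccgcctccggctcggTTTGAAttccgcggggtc
Top2a: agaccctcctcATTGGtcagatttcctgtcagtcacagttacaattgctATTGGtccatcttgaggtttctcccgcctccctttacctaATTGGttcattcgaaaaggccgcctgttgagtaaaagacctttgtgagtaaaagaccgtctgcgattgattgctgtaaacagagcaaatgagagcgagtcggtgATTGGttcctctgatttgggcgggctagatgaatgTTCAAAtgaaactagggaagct
Cdk1: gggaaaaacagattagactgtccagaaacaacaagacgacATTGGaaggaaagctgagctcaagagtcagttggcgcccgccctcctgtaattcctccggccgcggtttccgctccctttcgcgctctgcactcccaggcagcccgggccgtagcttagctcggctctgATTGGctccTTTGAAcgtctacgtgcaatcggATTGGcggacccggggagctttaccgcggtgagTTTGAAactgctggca

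Of 13 cell cycle inhibitors and p53 targets, the brakes on the cycle, 6 (46.2%) rose, beside 35.0% of all genes, and 1 fell. The inhibitor Cdkn1a rose by 3.43 ± 0.29 and Cdkn1b by 0.69 ± 0.087. Cdkn1c fell by 0.91 ± 0.33, a call lost without sham array 5 or ghrelin array 1 or 2 (highest limma adjusted p 0.0577). Immediate early genes, which answer growth and stress signals within minutes, rose in 12 of 15 cases and fell in 0 (median 1.47). Klf6 and Jun rose by 2.46 ± 0.15 and 2.05 ± 0.22, and Zfp36, which destabilizes cytokine mRNA, was at -0.14 ± 0.27. Among 15 genes of Notch, HGF and EGF signalling 7 (46.7%) rose and 3 (20%) fell, beside 35.0% and 21.2% of all genes. The fibroblast growth factor receptors Fgfr3 and Fgfr1 rose by 2.47 ± 0.27 and 1.97 ± 0.23, and the Notch ligand Jag1 by 1.96 ± 0.26. The growth factor Egf fell by 1.97 ± 0.13, its receptor Egfr by 1.64 ± 0.21, and Fgfr4, the hepatocyte receptor for intestinal FGF, by 0.29 ± 0.11. The Fgfr4 call was lost without any one of 7 arrays (highest limma adjusted p 0.131).

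Bile acid handling was lower at most steps. Of 18 bile acid synthesis genes 0 rose and 13 fell (median -0.52). Cyp8b1, which sets the share of cholic acid, read 7.28, 10.25, 7.40, 8.97 and 9.14 on the ghrelin arrays against sham values from 12.03 to 12.71 with a median of 12.59, without overlap (change -3.90 ± 0.61, limma adjusted p = 5.41e-05). Amacr and Hsd3b7, enzymes of side chain and ring conversion, fell by 2.24 ± 0.24 and 1.17 ± 0.12, and the bile acid receptor Nr1h4 by 0.83 ± 0.16. Cyp7a1, the rate-limiting enzyme, read 12.38, 13.05, 12.38, 13.17 and 12.35 on the ghrelin arrays and from 12.06 to 13.07 with a median of 12.49 in sham livers. Its groups overlapped and the change of 0.16 ± 0.24 was not called (limma adjusted p = 0.602).

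Of 17 hepatobiliary transporters 11 fell and 2 rose (median -0.86). The bile acid importer Slc10a1 read 12.76, 13.46, 12.74, 12.90 and 13.14 on the ghrelin arrays against sham values from 14.07 to 14.18 with a median of 14.11, a fall of 1.12 ± 0.15. The canalicular conjugate exporter Abcc2 fell by 2.01 ± 0.21, and the sterol exporter Abcg5 was at least 2.66-fold lower. Abcb11, the canalicular bile salt export pump, was at -0.12 ± 0.17. Abcc3, which moves conjugates back into blood, read 8.30, 8.39, 8.57, 8.93 and 8.63 against sham values from 3.40 to 4.06 with a median of 3.95. All ghrelin values were higher, a rise of 4.71 ± 0.19. The phospholipid floppase Abcb4 rose by 1.34 ± 0.22.

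Drug metabolism genes were mostly lower. Of 37 phase I genes 22 fell and 6 rose (median -0.74). Cyp3a9 and Cyp2d4 fell by 3.34 ± 0.43 and 1.95 ± 0.15, and Por, the electron donor of all microsomal P450 enzymes, by 1.44 ± 0.24. Cyp4f5 rose by 4.0 ± 0.19, and Cyp2e1 was at -0.10 ± 0.19. Of 27 phase II genes 14 fell and 4 rose (median -0.27). The acetyltransferase Nat8 fell by 4.79 ± 0.47, and the glutathione transferase Gstp1, which duct cells express, rose by 0.84 ± 0.24.

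The growth hormone dependent genes of male liver had the lowest median of the lists with at least 5 measured members. Of 15 measured 14 fell and 0 rose (median -2.07), and the 5 largest fitted decreases named above belong to this list. As some of the decreases named there are only bounds, which 5 were largest is not settled. Cyp2c11, the main male-specific P450 of rat liver, read 7.11, 9.63, 8.60, 4.86 and 6.37 on the ghrelin arrays. Its sham values ran from 14.29 to 14.91 with a median of 14.71. The groups were separate, and the fall was 7.37 ± 0.89 (limma adjusted p = 3.81e-06). Of 11 female-biased genes 2 (18.2%) rose and 3 (27.3%) fell, beside 35.0% and 21.2% of all genes. Cyp2c12, the female-specific P450, read 11.86, 11.39, 11.98, 13.22 and 12.94 against sham values from 6.07 to 9.89 with a median of 7.88. All its ghrelin values were higher (change 4.45 ± 0.55), and Trim24 rose by 2.41 ± 0.28. Hao2 and Cyp3a9, also female-biased, fell by 5.20 ± 0.43 and 3.34 ± 0.43. Cyp2c genes are close copies, and whether a probe set also read a neighbour was not tested.

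The axis that ghrelin acts on was read next. Ghsr and ghrelin itself, Ghrl, lay below the filter level on all 17 arrays, with Ghsr between 2.18 and 2.30 and Ghrl between 1.85 and 1.90. Of 18 measured genes of the ghrelin, growth hormone and IGF axis 7 (38.9%) rose and 3 (16.7%) fell, near the 35.0% and 21.2% of all genes. The growth hormone receptor Ghr read 11.91, 12.70, 11.92, 11.93 and 12.48 on the ghrelin arrays against sham values from 13.36 to 13.62 with a median of 13.49, a fall of 1.30 ± 0.16. Igf1, the hormone that growth hormone induces in liver, fell by 0.31 ± 0.097 (limma adjusted p = 0.013), a call lost after quantile normalization (-0.18, adjusted p = 0.13). Igfals, which holds Igf1 in serum complexes, read 10.28, 10.55, 10.92, 10.20 and 10.52 against sham values from 11.53 to 11.80 with a median of 11.65, a fall of 1.15 ± 0.15. The binding proteins Igfbp2 and Igfbp7 rose by 4.81 ± 0.44 and 2.11 ± 0.17.

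Circadian genes differed from sham. Of 18 clock and output genes 10 fell and 3 rose (median -1.04). The output factor Dbp fell by 4.80 ± 0.59, Per3 was at least 8.11-fold lower, and the repressor Nr1d1 fell by 2.63 ± 0.52. The activators Bmal1 and Npas2, which peak opposite to Dbp, rose by 2.81 ± 0.66 and 2.87 ± 0.59. The hour of death is not stated in the labels.

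Oxidative and sugar metabolism genes were mostly lower. Of 25 genes of fatty acid oxidation and ketogenesis 21 fell and 0 rose (median -0.69). Cpt1a, which admits fatty acids to mitochondria, fell by 1.67 ± 0.24, and Acat1 and Hadh by 1.89 ± 0.14 and 1.25 ± 0.11. Of 15 genes of glucose and fructose metabolism 10 fell and 2 rose (median -0.60). The glucose 6-phosphate transporter Slc37a4 and fructokinase, Khk, fell by 1.61 ± 0.12 and 1.21 ± 0.13, and Pck1, the gluconeogenic enzyme, was at -0.19 ± 0.13. Of 12 glycolytic isozymes found in most tissues 9 rose and 1 fell, with hexokinase Hk1 at least 3.87-fold higher, Aldoa at 1.49 ± 0.15 and Ldha at -0.70 ± 0.09.

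Lipid synthesis genes went both ways. Of 29 genes of lipogenesis and lipid droplets 9 (31.0%) fell and 5 (17.2%) rose (median -0.25), beside 21.2% and 35.0% of all genes. Elovl5, which lengthens fatty acids, and Dgat2, which makes triglyceride, fell by 1.06 ± 0.12 and 0.97 ± 0.15, and Elovl5 by 1.66 as the mean of its 2 probe sets. The desaturase Scd2 rose by 4.02 ± 0.25, lipoprotein lipase, Lpl, by 3.66 ± 0.26 and the lipid carrier Fabp4 by 3.20 ± 0.40. Fatty acid synthase, Fasn, was at 0.21 ± 0.22. Of 21 cholesterol genes 9 fell and 1 rose (median -0.42), with Insig2, which restrains sterol synthesis, at -1.63 ± 0.26. Of 18 apolipoprotein genes 9 fell and 2 rose, with Apoa4 at -2.50 ± 0.31 and Apom at -0.90 ± 0.17.

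Nitrogen metabolism and plasma proteins were lower or near sham. Of 40 genes of the urea cycle and amino acid breakdown 27 fell and 0 rose (median -0.65). Histidase, Hal, fell by 3.16 ± 0.38 and Otc of the urea cycle by 1.14 ± 0.20, while Cps1 and Ass1 of the same cycle were at -0.07 ± 0.084 and 0.05 ± 0.15. Of 28 coagulation factors and plasma proteins 12 fell and 2 rose, with afamin, Afm, at -1.35 ± 0.14 and protein S, Pros1, at -0.67 ± 0.073. With array medians set equal, 19 of them fell, while genes called lower went from 2066 to 2826 of all 9736. Albumin, Alb, was at -0.04 ± 0.052, near the top of each array, where a change can be compressed, and it too was called lower with array medians set equal.

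Of 23 hepatocyte transcription factors and nuclear receptors 9 fell and 2 rose (median -0.44). Hnf4a, a master factor of hepatocyte identity, read 12.21, 12.35, 12.40, 12.39 and 12.36 on the ghrelin arrays against sham values from 12.53 to 13.01 with a median of 12.83, a fall of 0.44 ± 0.10 (limma adjusted p = 0.00154). The groups were separate. This is the brightest of its 3 probe sets, and the mean over them fell by 1.45. The drug receptor Nr1i2 fell by 1.42 ± 0.18, Rxra, the partner of many nuclear receptors, by 2.04 ± 0.30 and Cebpa by 1.30 ± 0.26, and Cebpd, an acute phase factor, rose by 1.23 ± 0.24. In the livers where these hepatocyte genes were lower, the summed duct and stellate marker levels given above were higher, and their part in the result was not tested.

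General cell machinery moved less. All 20 measured ribosomal protein genes rose (median 0.56), Rps24 and Rps6 by 0.72 ± 0.077 and 0.59 ± 0.065. As the mean of its 2 probe sets Rps24 rose by 0.40. Of 23 lysosome genes 17 rose and 2 fell, with the protease Lgmn at 1.34 ± 0.11. Of 28 respiratory chain genes 8 (28.6%) fell, beside 21.2% of all genes, and 0 rose (median -0.13), with Sdha at -0.65 ± 0.098. With array medians set equal, 18 of them fell, while genes called lower went from 2066 to 2826 of all 9736. Of 24 stress genes of the endoplasmic reticulum 6 (25%) fell, near the 21.2% of all genes, and 1 rose. The asparagine synthetase Asns was the one that rose, by 2.02 ± 0.49, while the chaperone Hspa5 was at 0.00 ± 0.11. Of 25 proteasome subunits 6 (24%) rose and 1 (4%) fell, beside 35.0% and 21.2% of all genes. The count that rose was 11 after quantile normalization and 2 when the array medians were equalized. The glutathione and antioxidant list had 7 of 24 (29.2%) higher and 6 (25%) lower, near the 35.0% and 21.2% of all genes. Gpx3 rose by 3.39 ± 0.35, and Gclc and Gclm, which make the enzyme that limits glutathione synthesis, were at -1.30 ± 0.18 and -1.25 ± 0.17. In the iron and heme list 6 of 15 (40.0%) rose and 4 (26.7%) fell, also near those shares. The importer Slc11a2 rose by 1.57 ± 0.18 while Alas1, the first step of heme synthesis, fell by 1.83 ± 0.31.

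Markers of neighbouring tissues were mostly under the filter. Of 14 pancreatic acinar genes on the array 12 did not pass it, and Cpb1 and Cela1 were at -0.11 ± 0.32 and 0.05 ± 0.19. Of 11 muscle and fat genes 9 did not pass, among them Adipoq and Plin1. Of the 2 that passed, Fabp4, given above with the lipid genes, rose by 3.20 and the other was not called. Of 6 mesothelial genes Msln and Lrrn4 passed, the second at 0.00 ± 0.42, and Wt1 and Upk1b did not. Of 3 measured nerve genes 2 rose, myelin basic protein, Mbp, by 1.85 ± 0.41. The red cell genes Hbb and Alas2 fell by 0.80 ± 0.21 and 2.15 ± 0.48. The part of any of these in the results was not tested.

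In ligated saline against the same sham arrays, 6302 genes (64.7%) were called, 3653 (37.5%) higher and 2649 (27.2%) lower. Whether ligated livers differed with ghrelin was tested directly, as ligated ghrelin minus ligated saline, since a call against sham in one ligated group and not in the other would not show it. Of 9736 genes 228 (2.34%) passed the adjusted threshold, 171 higher and 57 lower under ghrelin, 13 of them by at least 1 log2 unit, and 2138 had an unadjusted p under 0.05. The 95% interval of the difference lay within 1 log2 unit on either side of 0 for 8787 genes (90.3%), with a median half-width of 0.27. By list this held for 8 of 31 scar matrix, 6 of 16 stellate and myofibroblast and 7 of 15 male-biased growth hormone dependent genes. It held for 14 of 20 bile duct, 25 of 41 cell division and 24 of 25 fatty acid oxidation genes. Where the interval is wider, a difference of 1 log2 unit is not excluded. The counts of called genes rest on single arrays. Without ghrelin array 2, 22 genes were called, and without saline array 4, 450. The other omissions gave counts between these. Of the 18 directly called genes described below, 15 lost their call without ghrelin array 2 (limma adjusted p from 0.0701 to 0.128). Each of these kept at least 84.6% of the size of its difference. That does not test stability, since all other arrays stayed the same. Fance and Pced1b were called in all alternatives that retained them. Plaur was called in those too, but it passed the filter only through the saline arrays, where it was high. Its call is therefore not taken as support.

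Beside their changes under ghrelin, 5 of the named genes had these changes in ligated saline against the same 6 sham arrays: Col1a1 4.64 ± 0.29, Krt19 5.03 ± 0.49, Mki67 4.54 ± 0.30, Cyp8b1 -3.81 ± 0.58 and Cyp2c11 -7.77 ± 0.85. Tsx was at least 184-fold higher under saline than in sham. The direct difference was -0.74 (95% interval -1.38 to -0.10) for Col1a1, 0.03 (95% interval -1.06 to 1.13) for Krt19, -0.43 (95% interval -1.11 to 0.24) for Mki67 and -0.08 (95% interval -1.37 to 1.21) for Cyp8b1. None of these 4 was called. The median change of the scar matrix list was 1.91 under ghrelin and 3.07 under saline, with a median direct difference of -0.67 and 1 of 31 members called. That member was Col3a1, which read 13.36, 12.96, 13.39, 13.35 and 13.11 under ghrelin and from 13.34 to 14.21 with a median of 14.001 under saline (-0.68, 95% interval -0.98 to -0.37, limma adjusted p = 0.0342). On the per-array scar matrix mean, the ghrelin arrays (1.88 to 2.51) overlapped the saline arrays (2.03 to 3.45). For bile duct epithelium the medians were 3.87 and 3.995 and for cell division 2.40 and 2.57, with no member called in the direct test. For urea cycle and amino acid genes they were -0.65 and -1.04, with Haao called. The medians over all genes were 0.09 under ghrelin and 0.07 under saline.

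The 4 largest fitted increases under ghrelin against saline were those of Plekhb1, Prtg, Pced1b and Fance. Fance, a Fanconi anaemia DNA repair protein, read 5.18, 5.36, 5.17, 4.92 and 4.66 on the ghrelin arrays and from 3.92 to 4.26 with a median of 3.99 on the saline arrays (difference 0.999, 95% interval 0.69 to 1.31, limma adjusted p = 0.0104). Plekhb1 differed by 1.22 (95% interval 0.68 to 1.77) and Pced1b by 1.14 (95% interval 0.70 to 1.58). Prtg, whose saline values all lay below the filter level, was at least 1.6-fold higher (limma adjusted p = 0.0299). The 4 largest fitted decreases were those of Olr1, Egr2, Plaur and Colec12. Plaur, the urokinase receptor, which focuses plasmin on the cell surface, read 3.74, 3.73, 3.51, 3.76 and 3.75 under ghrelin. Its saline values ran from 4.30 to 5.56 with a median of 5.09 and its sham values from 2.69 to 3.27 with a median of 2.92. It was at least 2.1-fold lower under ghrelin than under saline (limma adjusted p = 0.0127). All ghrelin and sham values of Plaur lay below the filter level, so no difference between them is given. Plaur passed the filter only through its saline arrays, so its call depends on the group where it was high. Olr1, the scavenger receptor for oxidized lipoprotein, differed by -1.52 (95% interval -2.33 to -0.71), the immediate early factor Egr2 by -1.33 (95% interval -1.99 to -0.67) and the scavenger lectin Colec12 by -1.32 (95% interval -1.96 to -0.68).

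Several list members chosen after their values were seen also differed. The pericyte gene Rgs5 differed by -0.70 (95% interval -1.03 to -0.36), and the protease Adam17, which sheds TNF, by -0.44 (95% interval -0.62 to -0.26). The lipogenic factor Srebf1 read 10.86, 11.33, 11.20, 10.34 and 10.69 under ghrelin, from 9.48 to 10.32 with a median of 9.98 under saline and from 10.94 to 11.49 with a median of 11.40 in sham livers. It was higher than under saline (0.94, 95% interval 0.55 to 1.32, limma adjusted p = 0.024) and not called against sham (-0.42 ± 0.18), although it was without any one of 4 arrays (lowest limma adjusted p 0.0214), with equal array medians (0.01995) and as the mean of probe sets (0.00401). Igfals was higher than under saline (0.64, 95% interval 0.33 to 0.95) and, as given above, lower than in sham. Igfbp4 and Jak2, the kinase of the growth hormone receptor, differed by 0.52 (95% interval 0.27 to 0.77) and -0.49 (95% interval -0.73 to -0.24). The heme enzyme Alad and the kynurenine pathway enzyme Haao were higher than under saline, by 0.46 (95% interval 0.25 to 0.66) and 0.56 (95% interval 0.31 to 0.81), and fell against sham by 0.82 ± 0.097 and 0.61 ± 0.12. The matrix protein Tgfbi was at 0.00 ± 0.11 against sham and differed from saline by 0.52 (95% interval 0.28 to 0.75).

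**Figure D4:**
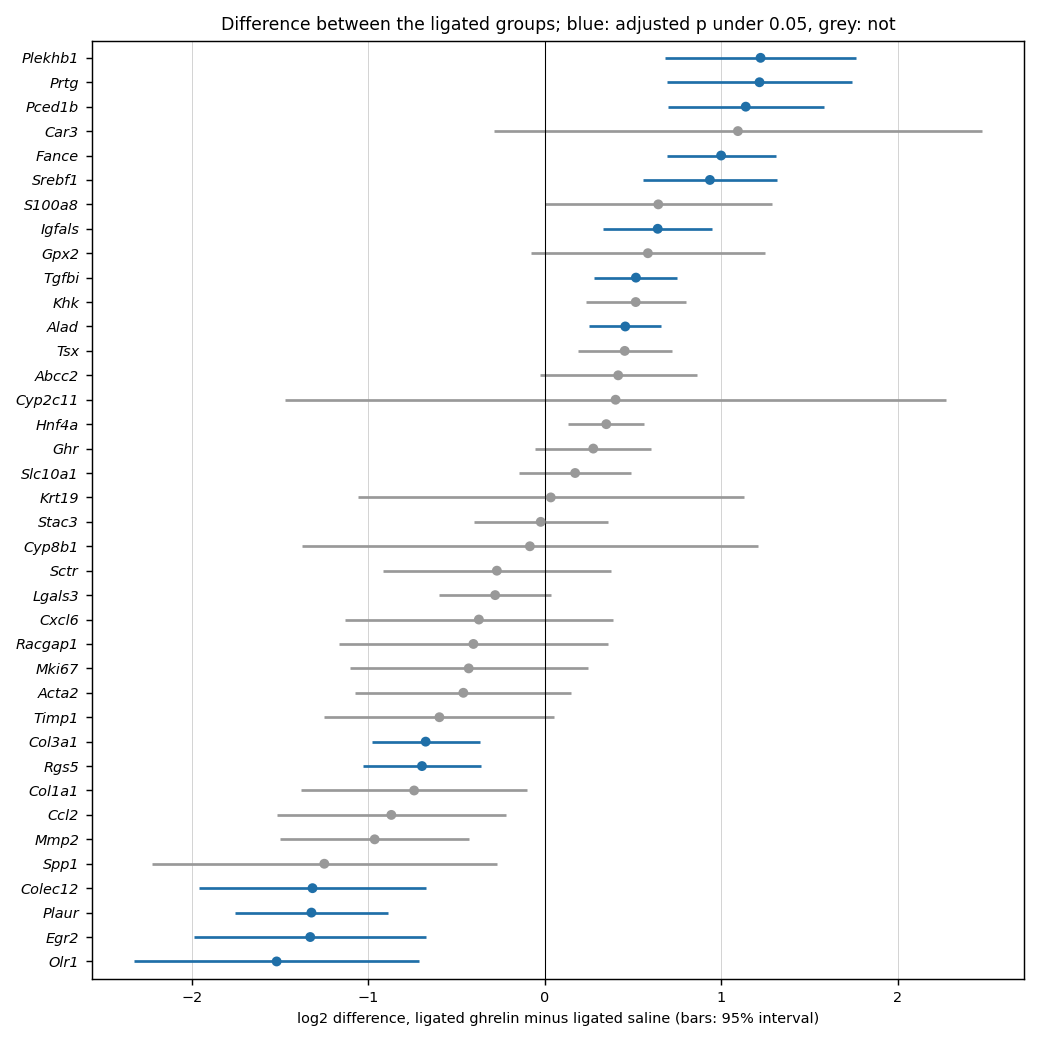
Difference in log2 intensity between ligated ghrelin and ligated saline livers (points) with its 95% interval (bars) for 38 named genes, blue where limma's adjusted p was under 0.05 and grey where it was not. The intervals are not adjusted for the number of genes, so some grey ones leave out 0. The called genes run from Olr1 at the low end to Plekhb1 and Prtg at the high end. All values of Plaur under ghrelin, of Prtg under saline and of Stac3 in both ligated groups lie below the filter level, so the points of Plaur and Prtg do not measure a size and that of Stac3 shows nothing about the 2 groups.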

How the data were processed

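Rat liver RNA was measured on 17 Affymetrix rat oligonucleotide arrays, 1 rat each. The deposited intensity values were made by the authors with GCRMA, per the submitters' processing notes, with version and settings not given in the sources used. They were linear and were converted to log2 with no pseudocount. Of 31099 probe sets 57 controls were left out, and 15965 of 31042 were kept because they exceeded the median of all values (15.5, log2 3.95) on at least 5 arrays. By the platform annotation 20826 probe sets had 1 gene symbol, 436 several and 9780 none, and 20758 matched RefSeq (GRCr8) by gene ID. A gene was its brightest kept probe set, giving 9736 genes. Changes were tested with limma 3.58.1 in R 4.3.3 as contrasts of 3 group means on all arrays, so that the saline arrays also entered the estimate of spread, with eBayes (14 residual and 2.54 prior degrees of freedom) and Benjamini-Hochberg adjustment over kept probe sets. The fit was tested on simulated data. Array quality values were compared by exact permutation over 462 splits in Python 3.11.15. The labels name 1 rat per array, so p-values measure the spread between these rats, and the number of arrays limits the precision. The labels give no batch or date.

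The members, the 49 gene lists (859 measured genes) and the tests were chosen with earlier results of these data known, and lists were given no test. The rule for named genes took the 8 largest changes each way among called genes without overlap, the 2 lowest-p members of each list with at least 25% called, the leading exception where 5 or fewer went the other way, a list of fixed genes, and the 4 largest differences each way between ligated groups. It named 152 genes. Of the 198 genes given here 125 came from it, and 73 list members were chosen after their values were seen. Alternatives were no filter, a filter at 2 times the level, quantile normalization, equal array medians, the 2 groups alone, eBayes with trend and robust, the mean of a gene's probe sets, and leaving out each array.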

Additional observations from a re-analysis of the deposited data

Results flagged for a closer look

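In 402 sets of values (each gene and array measure, in sham and in ligated ghrelin livers) 29 held an array far from the others by Dixon's criterion at 95%, where chance gives about 1 in 20. Values are log2 intensities, with the range of the other arrays of the group after each.

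Ghrelin array 3 stood high for Col1a1 (9.885, others 9.47 to 9.51) and Ccne1 (5.24, others near 4.50). It stood low for Smad6 (4.70, others 4.98 to 5.08), Cd14 (9.51, others 10.19 to 10.42), Hp (15.56, others 15.61 to 15.62), Sdha (11.20, others 11.51 to 11.63) and Plaur (3.52, others 3.73 to 3.76). This array also had the highest 3' minus 5' control values, and whether the readings are connected was not tested. Ghrelin array 2 stood low for Rgs5 (7.45, others 7.69 to 7.77) and S100a9 (11.22, others 11.92 to 12.20). Ghrelin array 1 stood low for Lhx2 (5.54, others 6.02 to 6.15), Trim24 (9.08, others 9.38 to 9.48) and Hnf4a (12.21, others 12.35 to 12.40).

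Sham array 1 stood high for Msln (4.71, others 2.36 to 2.94) and low for Mmp12 (2.53, others 3.32 to 3.37), Gstp1 (8.43, others 9.01 to 9.33) and Alb (15.81, others 15.88 to 15.92). Sham array 2 stood low for Acta2 (2.92, others 4.22 to 4.64) and Ccne1 (4.33, others 4.49 to 4.57), and high for Anxa5 (8.73, others 8.32 to 8.46). Sham array 3 stood low for Smad6 (4.74, others 4.98 to 5.09) and Klf6 (7.67, others 8.21 to 8.50), and high for Lrrn4 (7.21, others 6.22 to 6.49). Sham array 4 stood high for Tgfb2 (5.17, others 4.61 to 4.62), Krt7 (4.78, others 2.99 to 3.56) and Plekhb1 (10.70, others 9.84 to 10.02), and low for Prc1 (2.67, others 3.58 to 3.75). Sham array 5 stood low for Amacr (13.04, others 13.74 to 14.10). Sham array 6 stood low for Tagln (4.38, others 5.88 to 6.26) and high for Adamts1 (9.19, others 8.34 to 8.60).

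Ligation changes that differed between the ligated groups by limma's direct test were those of 18 named genes. The log2 difference, ghrelin minus saline, was positive for Plekhb1 (1.22), Prtg, Pced1b (1.14), Fance (0.999), Srebf1 (0.94), Igfals (0.64), Haao (0.56), Igfbp4 (0.52), Tgfbi (0.52) and Alad (0.46). It was negative for Olr1 (-1.52), Egr2 (-1.33), Plaur, Colec12 (-1.32), Rgs5 (-0.70), Col3a1 (-0.68), Jak2 (-0.49) and Adam17 (-0.44). No size is given for Prtg and Plaur, since all saline values of Prtg and all ghrelin values of Plaur lay below the filter level.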

How the results depend on the processing

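Against sham, 155 of 163 named genes that were called kept call and direction in all 24 alternatives, 8 lost the call in at least one, 14 of those not called gained one, and no called gene changed sign. Leaving out each array gave 5013 to 5518 called genes against 5471, 3151 to 3423 higher, 1856 to 2095 lower and 1723 to 1903 with at least 1 log2 unit, and 2429 to 2718 genes above and 1367 to 1611 below without overlap. Without the filter 8908 of 14217 genes were called, 5270 of them lower, and 2488 lay above and 4431 below without overlap. The cause was not tested. Of 2352 list counts 97 moved by over 1.5 times.

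The direct comparison of the ligated groups was less stable. Against 228 called genes, leaving out each array gave 22 to 450, with 18 to 291 higher, 4 to 159 lower, 4 to 57 of at least 1 log2 unit, and 8516 to 8897 intervals within 1 log2 unit. The count was 105 (81 higher, 24 lower, 5 of at least 1 log2 unit) without the filter, 366 (286 higher) after quantile normalization, 445 (395 higher, 22 of at least 1 log2 unit) with array medians equal and 72 (61 higher, 11 lower, 5 of at least 1 log2 unit) with the 2 groups alone. Trend and robust gave 97 lower, and the mean of probe sets 106 lower and 22 of at least 1 log2 unit. The cause was not tested. Of genes not called against sham, Reln was called without saline array 4 (limma adjusted p = 0.0453), and Onecut1, Hp and Prtg in 3, 5 and 5 alternatives, 1, 2 and 3 of them single omissions (lowest limma adjusted p 0.0339, 0.000104 and 0.00551). Pced1b lost its sham call without any one of 6 arrays. No paired analysis was possible because no replicate number occurs in more than 1 group's titles. Probe sets near the filter level limit the size of large changes.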
